A study of Homo sapiens with 6 samples.

Results

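Tight junctions, desmosomes and the polarity complexes that place them are the parts of an epithelial cell surface that hold neighbouring cells together and separate the apical from the basolateral membrane. The genes described here were every claudin, zonula occludens, desmocollin, desmoglein and plakophilin gene, together with a list of 22 named junction, polarity and epithelial surface genes, that had a probe set naming only that gene. They came to 56 of the 18132 genes measured. Of the 22 named genes 21 were measured, and F11R was not analysed here. Each gene was represented by its probe set with the highest mean over 6 arrays. The genes were taken by name, but with earlier results of these data known.

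The cells were MDA-MB-231, an established human breast cancer line known to lack the oestrogen receptor and to have mesenchymal features. They had received 5 µM SAHA (vorinostat), an inhibitor of histone deacetylases, for 8 h, or its solvent DMSO for 8 h, and 3 Affymetrix arrays were made per group from total RNA. Both groups were grown in DMEM/F12 medium with serum, and they come from 1 line, so other breast cells are not represented. Nothing in the labels says that the replicates came from different cultures, and the spread behind each p-value may therefore be technical only. RNA was taken from whole cultures, in which fewer cells of a kind and less RNA per cell cannot be told apart.

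In an epithelium, claudins and occludin form the sealing strands of the tight junction, and zonula occludens proteins and cingulin tie the strands to actin. In desmosomes, desmocollins and desmogleins bridge the gap between cells, while plakoglobin, plakophilins and desmoplakin connect them to keratin filaments. The Crumbs and PAR complexes mark the apical side, and the Scribble group, with LLGL2, marks the basolateral side. Mesenchymal breast cancer lines are known for low levels of many of these genes.

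Arrays of one group were nearly alike, with Pearson's r across 49293 probe sets of 0.997 to 0.998 within groups and 0.969 to 0.970 between groups. All 6 mesenchymal markers of the line were bright, with group means of 10.31 to 14.02 in SAHA arrays and 9.64 to 13.96 in DMSO arrays, and 1 was called higher and 4 lower. Their summed level, as log2, was 14.96 to 14.98 in SAHA arrays and 15.12 to 15.19 in DMSO arrays. CDH1, which encodes E-cadherin, had a log2 value of 4.17 in SAHA arrays and 4.20 in DMSO arrays, and the background probe sets had a median of 3.23 in SAHA arrays and 3.29 in DMSO arrays. Of 8 luminal epithelial markers 1 was called higher and 3 lower. KRT19, a simple-epithelial keratin, rose by 2.74, while GATA3, FOXA1 and KRT18 were called lower, at -1.23, -0.78 and -0.55. KRT8 and KRT18 were bright, at mean levels of 10.35 and 11.80. The summed level of 3 fibroblast markers, as log2, was 7.05 to 7.17 in SAHA arrays and 6.51 to 6.63 in DMSO arrays, and all 3 were called higher. That of 3 blood cell markers was 8.998 to 9.10 in SAHA arrays and 9.26 to 9.33 in DMSO arrays, with 2 called lower. Of 2 basal and 2 endothelial markers measured, 0 were called. Beside these counts, 48.3% of all genes were called, 24.6% higher and 23.8% lower, by the test described below. For ACTB, the 3' probe set minus the 5' one, which falls as more full-length RNA is amplified, came to 0.61 ± 0.06 in SAHA arrays and 0.89 ± 0.16 in DMSO arrays (SD, n = 3), and it separated the groups. The same measure for GAPDH separated them the other way, at 0.085, 0.045 and 0.058 in SAHA arrays, against 0.036, 0.0081 and 0.043 in DMSO arrays. These values go with every gene group below, and their part in the results was not tested.

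The members moved in both directions, in shares close to those of the whole array. With SAHA 16 of the 56 rose, the largest being LLGL2, JUP, CGN and CLDN1, and 10 fell, the largest being DSC2 and PKP3. By structure, 22 claudins gave 6 rises and 1 fall, and 4 tight junction plaque genes 3 and 0. The 5 other tight junction membrane genes gave 1 and 0, and the 14 desmosome genes 4 and 5. The 7 polarity genes gave 2 and 3, and the 4 protease, inhibitor and mucin genes 0 and 1. The difference between structures was not tested. A call here means an adjusted p under 0.05 in limma's moderated test over all 18132 genes, after Benjamini-Hochberg adjustment. Over all genes 48.3% were called, 24.6% higher and 23.8% lower, against 46.4%, 28.6% and 17.9% of the members. The median log2 fold change of SAHA over DMSO was -0.0039 over the members and -0.0074 over all genes. At least 2-fold differences among called members numbered 5 higher and 2 lower, where the array gave 5.93% and 4.47%. The SAHA and DMSO values did not overlap in 27 of the 56, with 55.5% over all genes. In 16 of them SAHA lay above DMSO and in 11 below, where all genes gave 28% and 27.5%.

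**Figure D1:**
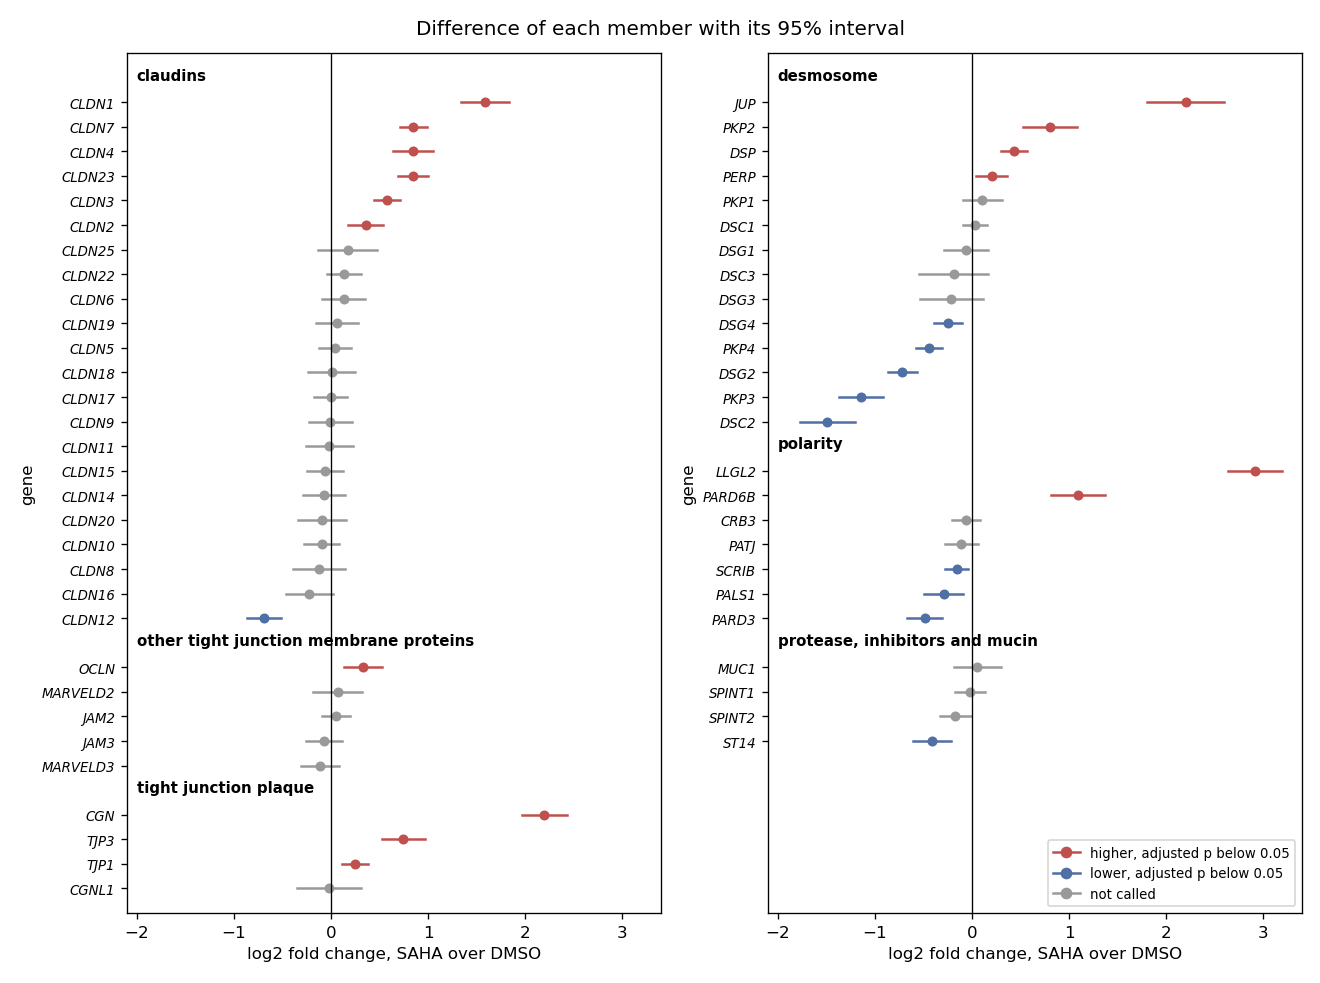
Log2 fold change of SAHA over DMSO for each of the 56 members, in limma's fit over all genes, by role. Points are estimates and lines 95% intervals from 3 arrays per group. Red points (16) are called higher, blue points (10) lower and grey points (30) were not called. LLGL2, JUP, CGN and CLDN1 lie farthest to the right and DSC2 and PKP3 farthest to the left.

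Sequences upstream of the starts of several changed members are printed here because members of the same structure moved in opposite directions. They are RefSeq sequences of build GRCh38.p14, each the 250 bases before the first listed transcript start on the gene's own strand. Of the 56 members 39 were matched, and 15 of these have several listed starts, of which the others were not examined. Capitals mark the GC box GGGCGG, to which Sp1-type factors bind, and the E-box CACCTG, to which factors such as ZEB1 and SNAI1 bind, each on either strand (CCGCCC and CAGGTG). The genes that rose come first, JUP at chr17:41786712-41786961 (minus strand), CGN at chr1:151511137-151511386 (plus), CLDN1 at chr3:190322447-190322696 (minus) and CLDN4 at chr7:73830746-73830995 (plus). The annotated span of CGN begins upstream of the start used for it.
JUP: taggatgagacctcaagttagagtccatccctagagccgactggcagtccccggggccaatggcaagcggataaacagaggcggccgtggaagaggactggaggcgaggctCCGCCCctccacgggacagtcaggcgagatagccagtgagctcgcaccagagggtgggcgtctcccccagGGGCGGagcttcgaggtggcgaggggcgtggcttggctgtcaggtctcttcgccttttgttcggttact
CGN: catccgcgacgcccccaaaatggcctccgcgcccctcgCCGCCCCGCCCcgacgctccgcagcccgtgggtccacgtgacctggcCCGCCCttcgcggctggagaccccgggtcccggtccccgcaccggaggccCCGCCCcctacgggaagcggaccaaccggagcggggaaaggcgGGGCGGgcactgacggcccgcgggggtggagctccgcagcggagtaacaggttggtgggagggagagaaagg
CLDN1: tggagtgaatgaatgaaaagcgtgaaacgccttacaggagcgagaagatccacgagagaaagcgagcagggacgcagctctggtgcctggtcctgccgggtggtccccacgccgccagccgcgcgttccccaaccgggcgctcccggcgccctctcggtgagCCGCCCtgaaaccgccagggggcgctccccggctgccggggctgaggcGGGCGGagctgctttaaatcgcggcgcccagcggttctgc
CLDN4: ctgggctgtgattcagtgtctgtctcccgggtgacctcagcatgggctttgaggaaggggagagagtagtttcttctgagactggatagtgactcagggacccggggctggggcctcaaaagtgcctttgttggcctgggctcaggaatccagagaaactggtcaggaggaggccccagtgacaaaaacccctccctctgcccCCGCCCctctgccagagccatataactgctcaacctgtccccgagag

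The members that fell are CLDN12 at chr7:90403211-90403460 (plus strand), DSC2 at chr18:31102422-31102671 (minus) and DSG2 at chr18:31497927-31498176 (plus).
CLDN12: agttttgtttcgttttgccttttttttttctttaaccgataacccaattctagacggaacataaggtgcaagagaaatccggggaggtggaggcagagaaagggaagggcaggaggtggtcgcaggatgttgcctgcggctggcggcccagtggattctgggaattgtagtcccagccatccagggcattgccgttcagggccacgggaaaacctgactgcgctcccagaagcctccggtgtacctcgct
DSC2: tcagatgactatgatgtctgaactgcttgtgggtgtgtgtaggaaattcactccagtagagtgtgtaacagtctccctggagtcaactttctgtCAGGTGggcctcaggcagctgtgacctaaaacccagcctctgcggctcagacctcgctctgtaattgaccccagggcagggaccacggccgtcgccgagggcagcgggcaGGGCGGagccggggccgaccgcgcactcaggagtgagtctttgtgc
DSG2: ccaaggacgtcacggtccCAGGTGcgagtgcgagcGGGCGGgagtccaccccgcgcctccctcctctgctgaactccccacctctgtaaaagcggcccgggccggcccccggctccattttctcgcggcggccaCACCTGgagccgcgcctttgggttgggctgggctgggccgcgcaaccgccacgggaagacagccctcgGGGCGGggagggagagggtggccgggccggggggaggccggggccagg

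The window of CGN held 5 GC boxes, a pair of which share 1 base, those of JUP, CLDN1 and DSG2 held 2 each, those of CLDN4 and DSC2 held 1 and that of CLDN12 held 0. The E-box was found 2 times in the window of DSG2 and 1 time in that of DSC2, and 0 times in those of JUP, CGN, CLDN1, CLDN4 and CLDN12. Over the 39 matched members, 64.1% held a GC box and 28.2% an E-box, against 57.2% and 16.8% of 14425 tested genes with a listed start. A GC box lay in 10 of 12 members called higher, 4 of 5 called lower and 11 of 22 not called. An E-box lay in 3 of 12 called higher (DSP, OCLN and TJP1), 2 of 5 called lower and 6 of 22 not called, so the printed windows do not show its spread over the members. The median share of G and C in these windows was 67.8% in members called higher, 73.2% in those called lower, 59.0% in those not called and 62.8% over all tested genes. A match of letters is a description of the window, not a binding site.

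Claudins gave 6 rises and 1 fall among 22 measured, and the other 15 were not called. That is 27.3% higher and 4.55% lower, where all genes gave 24.6% and 23.8%. CLDN1, a sealing claudin of skin and other epithelia, had log2 values of 7.98, 8.00 and 8.13 in the SAHA arrays, against 6.40, 6.67 and 6.27 in the DMSO arrays. The groups lay well apart, and the log2 fold change was 1.59 ± 0.11 (SE), which is 3.01-fold (limma's adjusted p = 8.99e-06). All 4 of its probe sets were called higher, at 0.67 to 1.62. CLDN4 and CLDN3 are neighbours on chromosome 7 with no protein-coding gene between them, and both bind the same bacterial enterotoxin. CLDN4 had 8.30, 8.39 and 8.48 in SAHA arrays, against 7.63, 7.37 and 7.63 in DMSO arrays, a log2 fold change of 0.85 ± 0.09 (adjusted p = 0.000107). Its other 2 probe sets differed by more, at 1.11 and 1.35. CLDN3 had 4.25, 4.16 and 4.23 in SAHA arrays, against 3.69, 3.61 and 3.60 in DMSO arrays, a log2 fold change of 0.58 ± 0.06 (adjusted p = 6.79e-05). These CLDN3 values are close to the background probe sets on the array's scale, where a fold change is understated.

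CLDN7, a claudin of simple epithelia that associates with the adhesion protein EPCAM, had 7.15, 7.11 and 7.02 in SAHA arrays, against 6.28, 6.20 and 6.25 in DMSO arrays. CLDN23 had 5.37, 5.27 and 5.19 in SAHA arrays, against 4.43, 4.47 and 4.39 in DMSO arrays. Neither pair of groups overlapped, and both genes rose by 0.85 ± 0.06 (limma's adjusted p = 1.09e-05 for CLDN7 and 1.82e-05 for CLDN23). Each of them was measured by 1 probe set, as was CLDN3. CLDN2, which forms a pore for cations, was called higher at 0.36 ± 0.08 (adjusted p = 0.00541), but a second probe set of almost equal brightness gave -0.01 ± 0.08.

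The 1 claudin that fell was CLDN12, which lacks the PDZ-binding end of most claudins. It had 8.93, 9.01 and 9.02 in SAHA arrays, against 9.77, 9.54 and 9.72 in DMSO arrays, a log2 fold change of -0.69 ± 0.07 (limma's adjusted p = 0.000122). Its second probe set was also called lower, at -0.51 ± 0.06. The claudins not called were CLDN5, CLDN6, CLDN8, CLDN9, CLDN10, CLDN11, CLDN14, CLDN15, CLDN16, CLDN17, CLDN18, CLDN19, CLDN20, CLDN22 and CLDN25. Their differences ran from -0.22 to 0.17, with 95% intervals between -0.47 and 0.48, and their mean levels from 2.999 to 7.04. CLDN16 lies next to CLDN1 on chromosome 3 and was not called, at -0.22 ± 0.11.

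**Figure D2:**
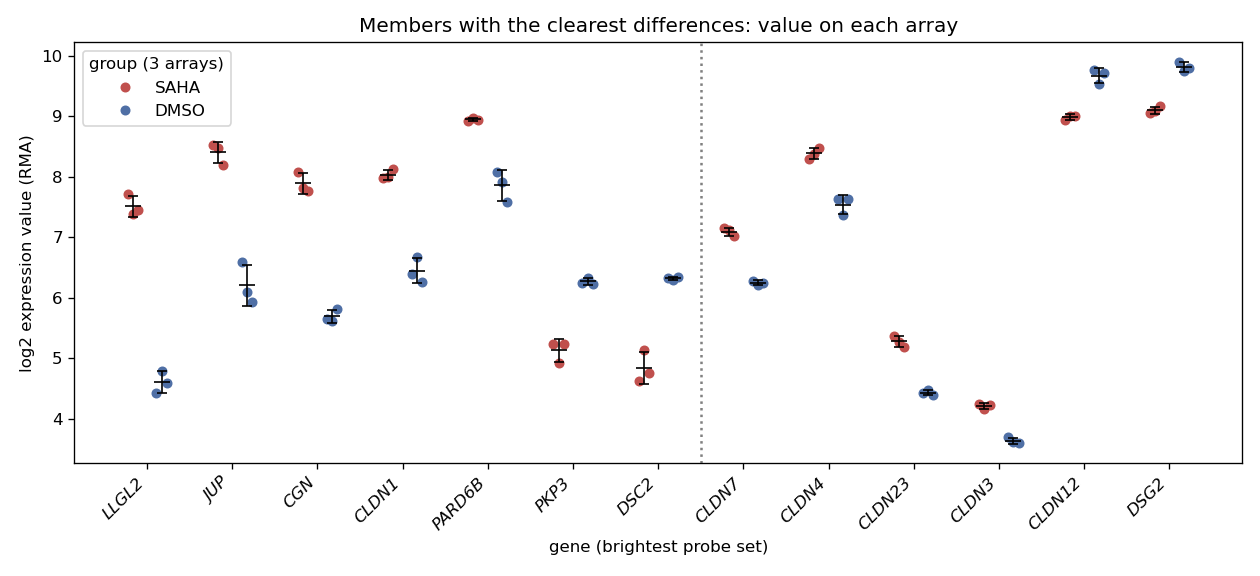
Log2 expression value on each array for the 7 members called with at least a 2-fold difference (left of the dotted line) and the 6 other members with the smallest p-values. Red points are the 3 SAHA arrays and blue points the 3 DMSO arrays, and bars show the mean ± SD. The 13 genes were picked for clear differences, so groups that do not overlap, as in each of them, come from that choice. Over all genes 55.5% do not overlap. Levels of different genes are not comparable.

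At the cytoplasmic plaque of the tight junction 3 of 4 measured genes rose and 0 fell, where all genes gave 24.6% higher and 23.8% lower. CGN, which encodes cingulin, had log2 values of 8.09, 7.82 and 7.77 in SAHA arrays, against 5.65, 5.62 and 5.82 in DMSO arrays. The lowest SAHA value lay far above the highest DMSO value, and the log2 fold change was 2.20 ± 0.10, or 4.59-fold (limma's adjusted p = 1.41e-06). Its 2 dimmer probe sets were called higher as well, at 1.33 and 0.85. The zonula occludens scaffold TJP3 had 5.34, 5.55 and 5.25 in SAHA arrays, against 4.77, 4.56 and 4.58 in DMSO arrays, a log2 fold change of 0.75 ± 0.10 (adjusted p = 0.000314). TJP1, its relative found at most cell contacts, rose by 0.25 ± 0.06 (adjusted p = 0.00643), and its second probe set was at 0.16 and not called. CGNL1, which encodes the cingulin relative paracingulin, was at -0.02 ± 0.14 in its brightest probe set, while its dimmest one, at a mean level of 3.94, was called higher at 0.62 ± 0.13.

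Among other tight junction membrane proteins 1 of 5 was called, with 48.3% over all genes. OCLN, which encodes occludin, had 7.08, 7.13 and 6.95 in SAHA arrays, against 6.57, 6.80 and 6.79 in DMSO arrays, a log2 fold change of 0.33 ± 0.08 (limma's adjusted p = 0.0109). Its second probe set gave a like value of 0.30 ± 0.06. OCLN did not pass in 3 of 18 other settings, and with the ACTB covariate it was at 0.14. MARVELD2, the tricellulin gene and neighbour of OCLN on chromosome 5, its relative MARVELD3, and the junctional adhesion molecules JAM2 and JAM3 were not called, at -0.11 to 0.07. Their mean levels of 3.37 to 4.59 were near the lower end of the scale, where 8.7% of all genes under 4 and 15.2% of those between 4 and 5 were called.

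Desmosome genes changed in opposite directions, with 4 of 14 higher, 5 lower and 5 not called. That is 28.6% higher and 35.7% lower, where all genes gave 24.6% and 23.8%. JUP, which encodes plakoglobin, a catenin of both desmosomes and adherens junctions, had log2 values of 8.53, 8.48 and 8.21 in SAHA arrays, against 6.58, 6.10 and 5.93 in DMSO arrays. It rose by 2.20 ± 0.17, or 4.60-fold (limma's adjusted p = 1.89e-05), as measured by 1 probe set. The cadherin DSC2 had 4.62, 5.13 and 4.75 in SAHA arrays, against 6.33, 6.30 and 6.34 in DMSO arrays. It fell by 1.49 ± 0.12 on the log2 scale, with no overlap between groups (adjusted p = 2.67e-05). Of its 6 probe sets 4 were called lower, and all 6 differences were below 0, from -1.49 in the brightest to -0.08 in the dimmest.

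DSG2, the desmoglein found in most tissues with desmosomes, had 9.06, 9.08 and 9.17 in SAHA arrays, against 9.91, 9.76 and 9.79 in DMSO arrays. It fell by 0.72 ± 0.06 (limma's adjusted p = 4.20e-05), and its other 2 probe sets, at -0.83 each, were called lower too. The 7 desmosomal cadherin genes lie side by side on chromosome 18 with no other protein-coding gene between them. Of these, DSC2 and DSG2 fell, and DSG4 was called lower by 0.25 ± 0.06 (adjusted p = 0.0103) at a mean level of 3.66, near that of the background probe sets. DSG4 lost its call in 5 of 18 other settings, and was at -0.06 after centring on poly-A spike-ins. DSC1, DSC3, DSG1 and DSG3, which are known from skin and other layered epithelia, were not called, at -0.21 to 0.03.

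The plakophilins, which cluster the cadherins at the plaque, were split. PKP3 had 5.24, 4.91 and 5.24 in SAHA arrays, against 6.25, 6.33 and 6.23 in DMSO arrays, a log2 fold change of -1.14 ± 0.10 (limma's adjusted p = 3.06e-05). Its second, dimmer probe set was at -0.35 ± 0.14 and not called. PKP4, found more at adherens junctions than in desmosomes, fell by 0.44 ± 0.06 (adjusted p = 0.000337), and all 4 of its probe sets were called lower. PKP2, by contrast, had 8.94, 9.07 and 8.93 in SAHA arrays, against 8.43, 7.95 and 8.15 in DMSO arrays, and rose by 0.81 ± 0.12 (adjusted p = 0.000683). Its second probe set was called higher at 0.90 ± 0.08. PKP1 was not called, at 0.11 ± 0.08.

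DSP, which encodes the keratin anchor desmoplakin, had 9.40, 9.41 and 9.52 in SAHA arrays, against 8.997, 8.99 and 9.03 in DMSO arrays. It rose by 0.44 ± 0.06 (limma's adjusted p = 0.000339), with 0.46 ± 0.07 in its second probe set. The desmosomal membrane protein gene PERP, a target of p53, was called higher by 0.21 ± 0.07 (adjusted p = 0.0378). This call was lost in 9 of 19 other settings, in 4 of them after leaving out 1 array, and the value in all 19 lay between 0.06 and 0.39.

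Polarity genes held the largest difference of all members. Of 7 measured, 2 were called higher (28.6%) and 3 lower (42.9%), where all genes gave 24.6% and 23.8%. LLGL2, a basolateral polarity gene related to the fly tumour suppressor lethal giant larvae, had log2 values of 7.71, 7.38 and 7.46 in SAHA arrays, against 4.43, 4.79 and 4.59 in DMSO arrays. The groups were separated by more than the whole range of either, and the log2 fold change was 2.92 ± 0.12, or 7.55-fold (limma's adjusted p = 9.16e-07). A second probe set of almost equal mean level, whose name ending in _x_at marks probes that match similar transcripts, was called higher by only 0.44 ± 0.08. PARD6B, an adaptor of the apical PAR complex, had 8.93, 8.98 and 8.95 in SAHA arrays, against 8.08, 7.92 and 7.58 in DMSO arrays. It rose by 1.09 ± 0.12, or 2.13-fold (adjusted p = 0.000133), and by 0.82 ± 0.08 in its second probe set.

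The other called polarity genes fell by small amounts. PARD3, the scaffold of the PAR complex, had 8.87, 8.64 and 8.63 in SAHA arrays, against 9.21, 9.17 and 9.22 in DMSO arrays, a log2 fold change of -0.49 ± 0.08 (limma's adjusted p = 0.00101). Of its 4 probe sets 2 were not called, and the second brightest was at -0.13, which ends the call. PALS1, of the Crumbs complex, was called lower by 0.29 ± 0.09 (adjusted p = 0.0252) and SCRIB, the Scribble gene, by 0.16 ± 0.05 (adjusted p = 0.0383). PALS1 lost its call in 8 of 19 other settings, among them leaving out SAHA array 1 or 2, and its other 4 probe sets, at -0.07 to -0.17, were not called. SCRIB lost it in 12, among them leaving out any 1 of the 6 arrays, and was at 0.02 after centring on poly-A spike-ins. CRB3 and PATJ, which belong to the Crumbs complex with PALS1, were not called, at -0.06 ± 0.06 and -0.11 ± 0.07.

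ST14 encodes matriptase, a membrane serine protease of epithelia, and SPINT1 and SPINT2 encode its inhibitors. ST14 had 5.23, 4.98 and 5.05 in SAHA arrays, against 5.39, 5.59 and 5.52 in DMSO arrays, and fell by 0.41 ± 0.08 (limma's adjusted p = 0.00406). Its other probe set, of nearly equal brightness, was at -0.08 ± 0.09 and not called. SPINT2 was not called at -0.17 ± 0.07 (adjusted p = 0.0720), although its 3 SAHA values lay below the 3 DMSO values. SPINT1 was at -0.02 ± 0.07, while 2 of its other probe sets were called higher at 0.32 and 0.30. The mucin gene MUC1 was not called in any of its 13 probe sets, and its brightest one was at 0.06 ± 0.10.

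Agreement between probe sets was set out for the 147 probe sets of the members, in a fit over all 49293 probe sets, where 32 of them were called higher and 22 lower, against 22.2% and 24.1% of all probe sets (46.4% in all). Of the 26 called members, 20 had several probe sets, and in 11 of these every probe set was called in the member's direction. None of the 20 had a probe set called in the other direction in this fit, and in 19 all probe sets had the same sign, the exception being CLDN2. The spread in size was larger than that in sign. CGN, LLGL2, DSC2 and PKP3 had their largest difference in the brightest probe set, and CLDN4 in the dimmest. In this fit the brightest probe set of SCRIB was itself not called, and a dimmer one was. Of the 30 members not called, CGNL1, CLDN19, CRB3 and SPINT1 had a dimmer probe set that was.

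**Figure D3:**
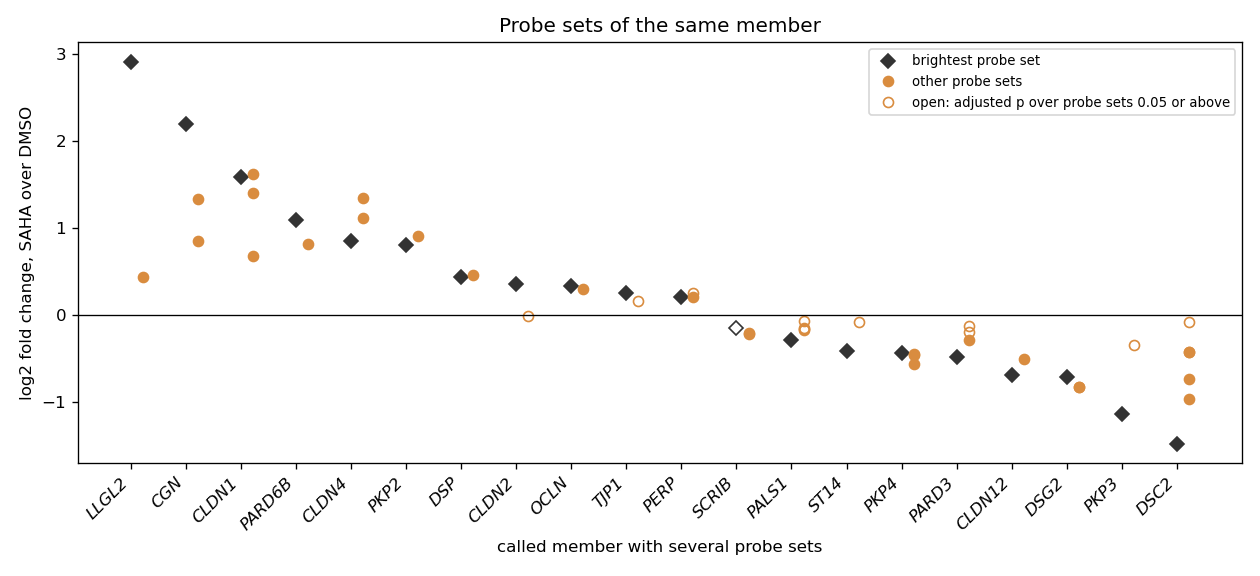
Log2 fold change of SAHA over DMSO of every probe set of the 20 called members that have several. Diamonds are the brightest probe set and circles the others, and open symbols were not called in limma's test over 49293 probe sets. Most members keep their sign, while LLGL2 runs from 2.92 to 0.44.

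Level and call went together, as they did over the whole array. Of the 23 members with a mean level under 5, 4 were called, with 11.9% of all genes there, and of the 33 at 5 or over, 22, with 63.3% of all genes. In finer steps it was 2 of 10 under 4 (8.7% of all genes), 2 of 13 from 4 to 5 (15.2%) and 4 of 8 from 5 to 6 (30.5%). Above these it was 7 of 13 from 6 to 8 (61.2%), 8 of 8 from 8 to 10 (78.6%) and 3 of 4 at 10 and over (71%).

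Other genes of the same structures, in a list of 51 that holds adherens junction genes and further tight junction and polarity components, gave 18 rises and 8 falls among 46 measured. That is 56.5% called, 39.1% higher and 17.4% lower, against 48.3%, 24.6% and 23.8% over all genes. The median log2 fold change of the list was 0.01. CXADR, an adhesion receptor of the tight junction, was at 9.72, 9.38 and 9.54 in SAHA arrays, against 6.23, 6.75 and 6.34 in DMSO arrays. It rose by 3.10 ± 0.14 (limma's adjusted p = 1.70e-06). All 4 of its probe sets were called higher, but all their names end in _x_at or _s_at. In the run without such probe sets CXADR could not be measured. LSR, which recruits tricellulin to the corners where cells meet, rose by 1.39 ± 0.06. The scaffold AMOT rose by 1.53 ± 0.08, with 1.24 in its second probe set and 0.11 and 0.25, not called, in its dimmest ones. PARD6G rose by 1.45 ± 0.08, LIN7B, a partner of PALS1, by 1.22 ± 0.07, and the adhesion receptor NECTIN2 by 1.06 ± 0.06. The second probe set of NECTIN2 was at 0.11 and not called.

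The largest fall in that list was of the polarity scaffold DLG5, at 7.44, 7.43 and 7.40 in SAHA arrays, against 9.16, 9.09 and 9.14 in DMSO arrays, a log2 fold change of -1.71 ± 0.05 (limma's adjusted p = 3.24e-07). EPCAM, the partner of CLDN7, had 7.72, 7.75 and 7.76 in SAHA arrays, against 8.73, 8.59 and 8.69 in DMSO arrays. It was called lower in all 3 probe sets, by 0.93 ± 0.06 in the brightest, while CLDN7 rose. The polarity kinase PRKCZ fell by 1.12 ± 0.10. Its second probe set was called lower at -0.91 ± 0.15, and its dimmest one was at 0.09 and not called. PRKCI, a relative of PRKCZ, rose by 0.25 ± 0.06. AMOTL2, related to AMOT, fell by 0.53 ± 0.06, with 0.09 and -0.19 in its other probe sets, which were not called. SYMPK fell by 0.51 ± 0.07 and YBX3, a transcription factor that binds zonula occludens proteins, by 0.43 ± 0.05. CDH1 was not called, at -0.03 ± 0.08.

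**Figure D4:**
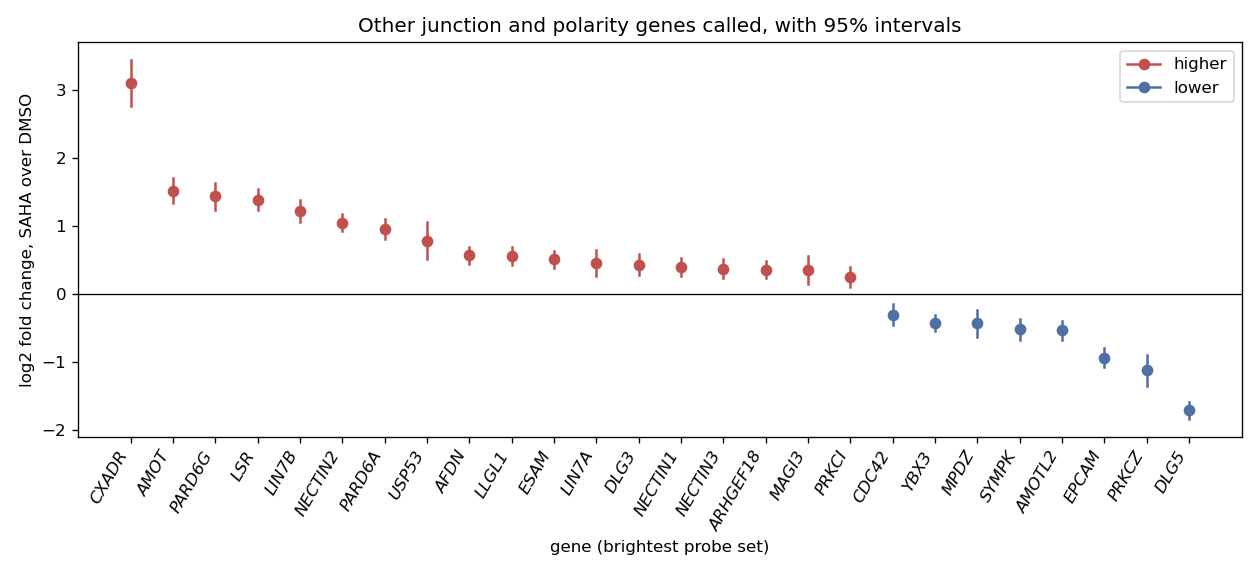
Log2 fold change of SAHA over DMSO with 95% intervals for the 26 called genes of the list of other junction and polarity genes. Red points (18) are higher and blue points (8) lower. CXADR stands highest at 3.10 and DLG5 lowest at -1.71.

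The balance of directions depended on which spike-ins were used for scaling. Centred on hybridization spike-ins, which moved the median of all genes by -0.014, 16 members were higher and 10 lower, as without centring. Centred on poly-A spike-ins, which moved every gene by 0.18 alike, 19 members were higher and 5 lower, with 6023 and 2412 over all genes, against 4457 and 4307 without centring. With the ACTB difference as a covariate 12 members were higher and 7 lower (33.9% called, with 36.1% of all genes), and LLGL2, JUP, CGN, CLDN1, DSC2 and PKP3 were among them.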

How the data were processed

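Biotin-labelled cRNA was made from total RNA by 3' amplification, per the labels' protocols. The authors deposited 1 log2 value for each probe set and array. The submitters' processing notes name RMA, without version or settings. RMA makes the distributions of arrays equal, so a shift of most transcripts cannot be read from them. Of 49395 probe sets 102 were array controls, 44988 named 1 gene by the platform annotation, 1832 several and 2473 none. Symbols were looked up in a RefSeq table of GRCh38.p14, in which the identifiers of 27 probe sets naming 1 gene found no match.

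The comparison was SAHA minus DMSO in limma 3.58.1 under R 4.3.3 (lmFit and eBayes, two-sided, no covariates or level filter), adjusted over all genes at 0.05. Text values are log2 fold changes ± SE, with n = 3 per group. The procedure was also run on simulated data with independent noise and few changed genes. Many genes changed here, so that run does not measure error rates in these data. The members, lists and alternatives were chosen with earlier results of these data known. Every measured member is named, and per-array values are given at least for those with a 2-fold difference and the 6 others with the smallest p. Of the other junction genes, the 6 smallest p-values in each direction are named, with CDH1 and PRKCI added after values were seen. Replicate numbers showed no pairing of the arrays over all probe sets, and the main fit used none. The number of arrays limits the precision. Figures used matplotlib 3.10.9.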

Additional observations from a re-analysis of the deposited data

How the results depend on the processing

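Of the 26 called members, 15 kept their call in all alternatives run (19, fewer where a gene was filtered out), among them LLGL2, JUP, CGN, CLDN1, PARD6B, DSC2 and DSG2. PARD3 and PKP3 lost theirs only with the second brightest probe set, and PKP4 only centred on poly-A spike-ins. CLDN2, DSG4, OCLN, PALS1, PERP, SCRIB, ST14 and TJP1 lost theirs with the ACTB covariate and also under treat at 1.2-fold. Members lower numbered 6 with the second brightest probe set and 6 under treat, which called 5290 genes and 11 other junction genes higher. Centred on poly-A spike-ins, 5 members and 5 other junction genes were lower and the members' median was 0.18. That median was 0.062 at a mean level of at least 5 and 0.035 with the ACTB covariate. Among the named genes called before or after the change, signs turned for CLDN2 (-0.013), SPINT1 (0.32) and AMOTL2 (0.087) with the second brightest probe set and for SCRIB (0.024) on poly-A spike-ins. Of the 30 members not called, 26 had the other sign in at least 1 alternative. Main differences of the 30 ran from -0.22 to 0.17, and centring on poly-A spike-ins moved every gene by 0.18 alike. For the other changes no cause was tested.

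With the replicate number as a block 8291 genes changed, with 15 members higher and 9 lower, PERP and SCRIB being lost. Over all probe sets the numbers showed no pairing, as deviations from the group means correlated at -0.10 to -0.03 within numbers. With 3 arrays per group these values cannot settle whether a number marks a shared batch. Leaving out each array gave 8069 to 8486 genes, 15 to 16 members higher, 8 to 10 lower, a median of -0.02 to 0.02, and 18 other junction genes higher and 8 to 10 lower. Near the background level differences are understated, which limits what can be said of the dim claudins, desmocollins and MARVEL genes.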
